A study of Mus musculus with 6 samples.

Results

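The mitogen-activated protein (MAP) kinase cascade passes signals from the cell surface through a chain of protein kinases, each of which phosphorylates and activates the next. A MAP4 kinase or a small GTPase engages a MAP3 kinase, this activates a MAP2 kinase, and the MAP2 kinase phosphorylates a MAP kinase of the ERK, JNK or p38 branch on a threonine and a tyrosine. Among the dual-specificity phosphatases, the typical MAP kinase phosphatases remove both phosphates, and several of their genes are transcribed in response to the pathway they switch off. In B cell precursors the cascade acts downstream of the pre-B cell receptor and of growth factor receptors.

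The genes described here are those whose symbol in the array design reads Mapk, Map2k, Map3k, Map4k or Dusp followed by a number. The rule gave 64 of the 27443 named genes on the array, measured by 103 of its 55681 probes. They comprise 13 MAP kinases, 7 MAP2 kinases, 15 MAP3 kinases, 5 MAP4 kinases and 24 dual-specificity phosphatases. The rule used gene names only and no measured value.

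RNA came from 1676 cells, a mouse pre-B cell line that is SLP-65-/- LAT-/- and therefore lacks the adaptor proteins SLP-65 and LAT in all groups. All cells were kept in IL-7, their growth factor, after retroviral transduction and selection with puromycin. Each group had 2 arrays: the control group carried the empty vector, the miR-26a group overexpressed hsa-miR-26a-2, and the sponge group expressed a transcript whose repeated binding sites sequester miR-26a and miR-26b. The comparisons ask which transcripts change when miR-26a is raised or the miR-26 family is sequestered. The control of the sponge was the empty vector and not a scrambled sponge, and the line is a single genotype without its normal receptor adaptors. The 2 arrays of a group were described as biological replicates, and 1 array of each group was taken as 1 experiment by the replicate numbers of the labels. Replicate 1 and replicate 2 arrays also lay in different columns of the slide, so experiment and slide position cannot be told apart.

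Between 28823 and 29800 of the 59305 spots of an array were well above background and 0 were saturated. All 8 pre-B marker genes, among them Cd79a and Vpreb1, were above background on all 6 arrays. The log2 of their summed signal was 18.75 and 18.84 in the control, 18.70 and 18.79 with miR-26a, and 18.71 and 18.87 with the sponge. The brightest probes, such as that of Vpreb1, contribute most to this sum, so it says little about the dimmer markers. Above background on all arrays were also 4 of 6 myeloid markers (log2 of the summed signal 11.82 to 12.40), 3 of 5 T cell markers (11.05 to 11.36) and 1 of 4 erythroid markers (5.35 to 5.85). The erythroid gene Hbb-b1 and the T cell gene Cd3g were above background on 0 arrays. The myeloid genes Lyz2 and Mpo were above background on at most 1 array per probe. Present on all 6 arrays were the myeloid genes Itgam, Fcgr3, Elane and Csf1r and the T cell genes Cd3e, Cd4 and Lck. Itgam reached a log2 signal of 12.00 and Lck 10.43. With miR-26a the pre-B marker Rag1 and 2 of the 6 tested myeloid marker probes were lower at an adjusted p under 0.05 in limma (Rag1 -2.47, Itgam -0.82 on 1 of 2 tested probes and Fcgr3 -0.51 on the log2 scale), and the part of these shifts in the results below was not tested. Fewer cells of a type and less RNA per cell cannot be told apart in bulk RNA.

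The miR-26 family is defined by its seed, bases 2 to 8 of the mature miRNA, which is shown in capitals. The RefSeq entries of the mouse (GRCm38.p6) place miR-26a-5p at chr9:119031811-119031832 (Mir26a-1) and chr10:126995543-126995564 (Mir26a-2) and miR-26b-5p at chr1:74394324-74394344, all on the plus strand. Both share the seed and differ at 2 positions of their shared length. The sponge is directed at both.
mmu-miR-26a-5p: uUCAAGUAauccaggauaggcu
mmu-miR-26b-5p: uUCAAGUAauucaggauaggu

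The DNA word that pairs with bases 2 to 8 is TACTTGA, and the shorter word ACTTGA pairs with bases 2 to 7. Both were sought in the sense strand of the 60-base probes, which is the strand of the transcript, and the shorter word lies within the longer. The longer word occurred in 1 of the 103 probes (Map2k4) and in 0.431% of all probes on the array. The shorter word occurred in 2 (Map2k4 and Map4k1) and in 1.96% of all probes. The word ACTTGAA occurred in 0 of these probes and in 0.7% of all probes. These are the 30 bases around each match, with the word in capitals. The Map2k4 probe lies at chr11:65502886-65502945 on the minus strand and the Map4k1 probe at chr7:29788230-29788289 on the plus strand of mm9, the build of the array design.
Map2k4: TACTTGAgcaggataaagatcctaaatggc
Map4k1: atctcccaataaACTTGActttagtcttgt

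A probe covers only a short stretch of a transcript, and the other parts of these transcripts were not analysed here. On the matched Map2k4 probe the log2 change with miR-26a was -0.05 (SE 0.11, adjusted p = 0.845, limma). For Map4k1 it was -0.39 (SE 0.09, adjusted p = 0.0562, limma).

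Of the 64 genes, 40 were tested through 62 probes that passed the detection filter, which asks for a signal well above background on 1 array or more and a processed signal over 50 on at least 4 arrays. All 7 MAP2 kinases and all 5 MAP4 kinases were tested, against 8 of 13 MAP kinases, 8 of 15 MAP3 kinases and 12 of 24 dual-specificity phosphatases. For 10 genes no probe was above background on any array. These were the MAP kinases Mapk10, Mapk13 and Mapk15, the MAP3 kinase Map3k9, and the phosphatases Dusp4, Dusp15, Dusp18, Dusp21, Dusp26 and Dusp27. The other 14 untested genes had a probe above background on at least 1 array but too dim for the filter.

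With miR-26a the transcript of the atypical MAP kinase Mapk6 and that of the phosphatase Dusp23 fell, and those of the MAP2 kinase Map2k1 and the phosphatase Dusp28 rose. In probes, 3 of 62 were lower and 2 higher than in the control at a Benjamini-Hochberg adjusted p under 0.05 in limma. Of all 20168 probes tested, 5.14% were lower and 4.5% higher. At an unadjusted p under 0.05, 11 member probes were lower and 15 higher, together 41.9% of them beside 27.3% of all probes. The median log2 change was 0.03 over the 62 probes and 0.01 over all. These 5 calls rest on pairing the arrays by experiment, because a fit without the replicate block made 0 calls among these genes. With the block, leaving out control replicate 1 or control replicate 2 also gave 0 calls, and leaving out miR-26a replicate 2 gave 3.

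With the sponge, 0 of the 62 probes were lower and 0 higher at an adjusted p under 0.05 in limma. Over all probes 0% were lower and 0.00992% higher, so that few transcripts of any kind passed. At an unadjusted p under 0.05, 7 member probes were lower and 4 higher, or 17.7% beside 16.1% of all probes. The median log2 change was -0.06 over the 62 probes and 0.00 over all. The alternative settings run gave 0 calls among these genes for the sponge.

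Set directly against the sponge, miR-26a gave 6 lower and 9 higher probes among the 62, beside 8.49% lower and 8.28% higher of all probes. The lower probes belong to Mapk6, Dusp6, Dusp16, Dusp23 and Map3k5, and the higher probes to Map2k1, Map2k2, Map3k3, Mapk3, Mapk8, Mapk9, Mapk14 and Dusp28. At an unadjusted p under 0.05, 48.4% of the member probes and 34.6% of all probes differed. This comparison shares its miR-26a arrays with the comparison against the control, so the calls are not independent. Without the block 4 probes passed, and 0 passed when sponge replicate 1 or sponge replicate 2 was left out. Leaving out control replicate 1, control replicate 2 or miR-26a replicate 1 gave 8, 8 and 9.

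**Figure D1:**
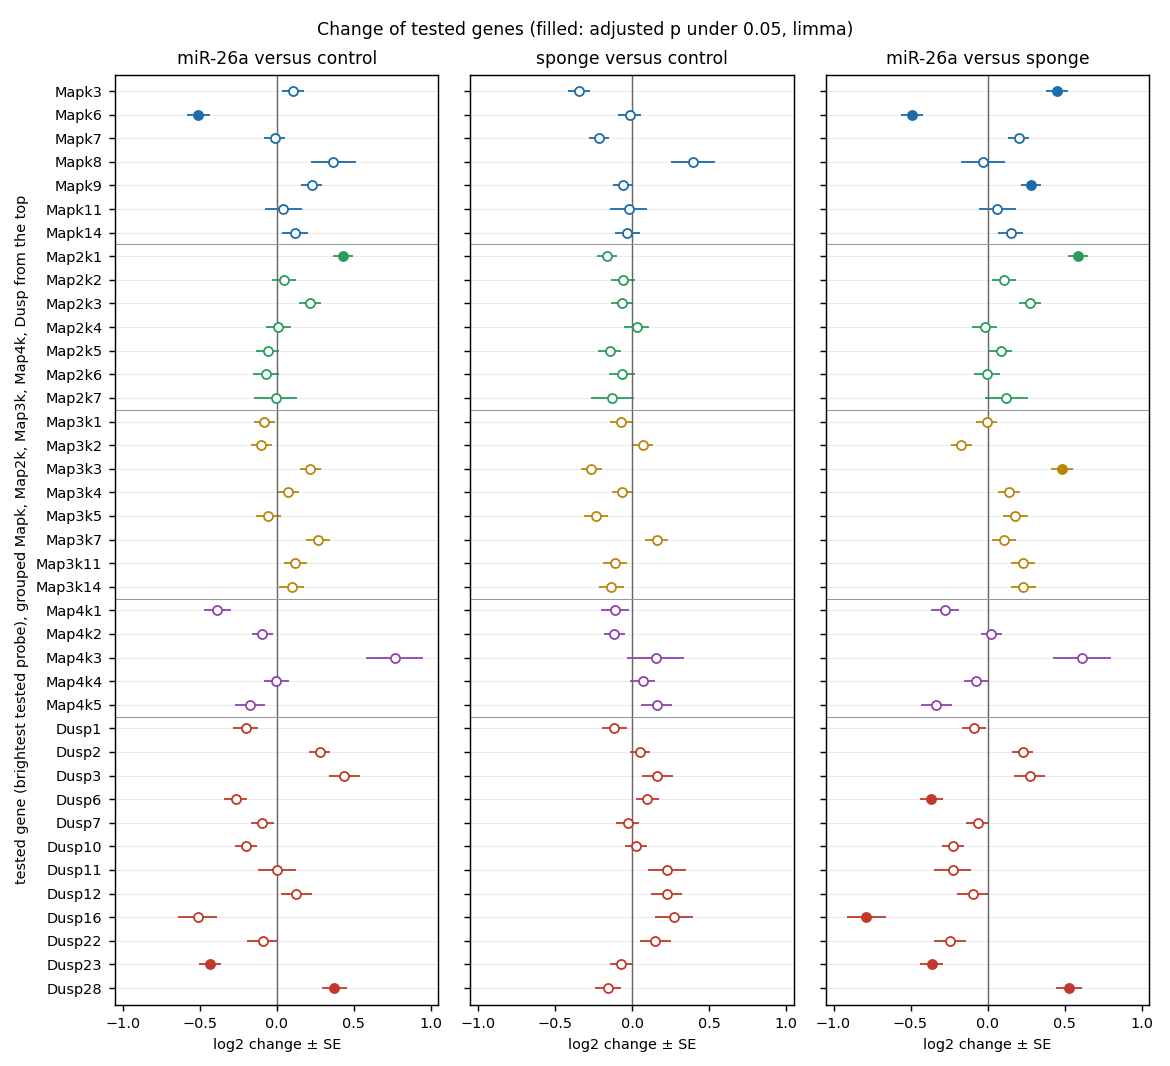
The log2 change of 39 of the 40 tested genes, each by its brightest tested probe, is plotted on the x axis with its SE, for miR-26a versus control, the sponge versus control and miR-26a versus the sponge. Filled points passed an adjusted p of 0.05: Mapk6, Map2k1, Dusp23 and Dusp28 in the left panel, none in the middle panel.

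Mapk6 encodes ERK3, an atypical MAP kinase whose activation loop lacks the usual threonine and tyrosine pair and whose protein turns over quickly. It was measured by 3 probes at different places of the transcript, which are shown because they differ in the size of the change. Their mm9 positions, all on the minus strand, are chr9:75236593-75236652, chr9:75236077-75236136 and chr9:75234720-75234779, in the order of transcription. Bases 1 to 30 are given for the upstream and the middle probe, and bases 31 to 60 for the downstream probe, with the polyadenylation hexamer AATAAA in capitals. This hexamer, sought on the probe strand, occurred in 12 of the 103 probes and in 10.1% of all probes.
Mapk6 upstream probe: tggtgtggagggagagcgaggttaaccatt
Mapk6 middle probe: acaagttttttagcaggaaggaggattccg
Mapk6 downstream probe: catccctaggcaagcatgAATAAAattagg

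On the downstream probe, the brightest, the Mapk6 log2 signal was 11.44 and 11.34 in the control, 10.97 and 10.79 with miR-26a, and 11.38 and 11.36 with the sponge. Both miR-26a arrays lay below the other 4. The log2 change with miR-26a was -0.51 (SE 0.07, adjusted p = 0.0166, limma), a ratio of 0.703. On the upstream probe the Mapk6 log2 signal was 8.46 and 8.04 in the control, 7.93 and 7.23 with miR-26a, and 8.75 and 8.26 with the sponge. Again the miR-26a arrays were the lowest pair, the control and sponge arrays overlapped, and replicate 1 was higher than replicate 2 in each group. The change with miR-26a was -0.67 (SE 0.09, adjusted p = 0.0143, limma). The middle probe was dim and gave -0.25 (SE 0.09, adjusted p = 0.139, limma). The 3 probes thus had the same sign, and 2 of them passed the test.

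With the sponge, the Mapk6 probes did not move together. The log2 change was 0.25 on the upstream probe (adjusted p = 0.28, limma), 0.00 on the middle probe and -0.02 on the downstream probe (95% interval -0.20 to 0.16). Against the sponge, Mapk6 with miR-26a differed by -0.92 on the upstream probe (SE 0.09, adjusted p = 0.00467, limma) and -0.49 on the downstream probe (SE 0.07, adjusted p = 0.0135, limma). Averaged over its probes, Mapk6 differed from the sponge by -0.55 (adjusted p = 0.00931, limma). The other atypical MAP kinases, Mapk4 and Mapk15, were too dim to be tested.

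Mapk3 (ERK1) belongs to the ERK branch, which carries mitogenic signals. For Mapk3 the low group was the sponge and not miR-26a. Its log2 signal was 12.08 and 12.22 in the control, 12.20 and 12.31 with miR-26a, and 11.68 and 11.92 with the sponge. The control and miR-26a arrays overlapped, and both sponge arrays lay below them. The log2 change with the sponge was -0.34 (SE 0.07) on this probe and -0.32 (SE 0.07) on a second Mapk3 probe, with unadjusted p-values of 0.00348 and 0.00397 and an adjusted p of 0.221 for both (limma). With miR-26a the same probes gave 0.11 and 0.12, and miR-26a exceeded the sponge by 0.45 on both (adjusted p = 0.0155 and 0.015, limma). Mapk7 (ERK5), a larger kinase activated by growth factors and stress, gave -0.01 with miR-26a and -0.22 with the sponge (adjusted p = 0.25, limma).

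The JNK kinases respond to stress and cytokines. For Mapk8 (JNK1) the log2 change with miR-26a was 0.23, 0.27 and 0.37 on its 3 tested probes, with adjusted p-values of 0.102, 0.0622 and 0.181 in limma. With the sponge the same Mapk8 probes gave -0.14, 0.43 and 0.40, so they disagreed in sign. Their unadjusted p-values were 0.0937, 0.000856 and 0.0378, and their adjusted p-values were 0.383, 0.191 and 0.29 (limma). On the probe with the lowest Mapk8 signal, miR-26a exceeded the sponge by 0.36 (adjusted p = 0.0242, limma), whereas the brightest probe gave -0.03 (95% interval -0.39 to 0.33). On this brightest probe control replicate 2, at 6.60, lay well below control replicate 1, at 7.33. The Mapk8 difference between miR-26a and the sponge is therefore a result of 1 probe of 3, which gave 0.14 with normexp background correction (adjusted p = 0.201, limma). The mean of the Mapk8 probes gave 0.06 (adjusted p = 0.621, limma).

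Mapk9 (JNK2) had a log2 signal of 10.68 and 10.69 in the control, 10.93 and 10.89 with miR-26a, and 10.64 and 10.61 with the sponge on its brightest probe. The miR-26a arrays were the highest pair. The log2 change was 0.23 against the control (SE 0.07, adjusted p = 0.0953, limma) and 0.28 against the sponge (SE 0.07, adjusted p = 0.0416, limma). A second Mapk9 probe gave 0.12 and 0.24. With scaling to the 75th percentile, the brightest Mapk9 probe differed from the sponge by 0.27 (adjusted p = 0.0588, limma) and did not pass. Mapk10 (JNK3), which is mainly neuronal, was not above background on any array.

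Of the p38 kinases, Mapk14 (p38 alpha) and Mapk11 (p38 beta) were tested. The brightest Mapk14 probe gave a log2 change of 0.12 with miR-26a (95% interval -0.09 to 0.33) and -0.03 with the sponge. A dimmer Mapk14 probe had 8.05 and 7.87 in the control, 8.21 and 7.96 with miR-26a, and 7.81 and 7.69 with the sponge. The control and miR-26a ranges overlapped on it, and miR-26a exceeded the sponge by 0.34 (SE 0.07, adjusted p = 0.032, limma). Without the replicate block this difference did not pass (adjusted p = 0.172, limma). Mapk11 gave 0.04 with miR-26a and -0.02 with the sponge.

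Among the MAP2 kinases, the transcript of Map2k1 (MEK1), which phosphorylates ERK, rose with miR-26a. Its log2 signal was 11.12 and 11.22 in the control, 11.55 and 11.64 with miR-26a, and 10.95 and 11.06 with the sponge. The 3 groups did not overlap, and the order was sponge, control and miR-26a. The log2 change with miR-26a was 0.43 (SE 0.07, adjusted p = 0.0198, limma), a ratio of 1.35. With the sponge the Map2k1 change was -0.16 (SE 0.07, adjusted p = 0.313, limma), the largest value of the MAP2 kinases in that comparison, and it did not pass. Against the sponge it was 0.59 (SE 0.07, adjusted p = 0.00663, limma). Map2k1 was measured by 1 tested probe, at chr9:64034232-64034291 on the minus strand of mm9. Its bases 1 to 30 are given to place the measurement, without capitals, since the probe holds none of the words sought.
Map2k1: ctttgtgcttggggctatttgtctgttcat

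Map2k2 (MEK2), the close relative of Map2k1, had 2 tested probes on different sides of the threshold. The brighter Map2k2 probe gave a log2 change of 0.05 with miR-26a (95% interval -0.15 to 0.24), and miR-26a exceeded the sponge by 0.10 (adjusted p = 0.391, limma). The dimmer probe had 11.87 and 11.87 in the control, 12.04 and 12.02 with miR-26a, and 11.73 and 11.69 with the sponge. On it the change with miR-26a was 0.16 (adjusted p = 0.182, limma), and miR-26a exceeded the sponge by 0.32 (SE 0.07, adjusted p = 0.03, limma). Averaged over both Map2k2 probes the difference was 0.21 (adjusted p = 0.0709, limma).

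None of the kinases that activate the stress branches passed the test. Map2k3, which activates p38, gave a log2 change of 0.21 with miR-26a (SE 0.07, adjusted p = 0.127, limma), and its partner Map2k6 gave -0.07 (95% interval -0.28 to 0.14). For Map2k4 and Map2k7, which activate JNK, the brightest probes gave 0.01 (95% interval -0.19 to 0.21) and -0.01 (-0.35 to 0.34) with miR-26a. With the sponge Map2k3, Map2k4, Map2k6 and Map2k7 gave -0.07, 0.03, -0.06 and -0.13. Map2k5, which activates Mapk7, gave -0.06 with miR-26a and -0.15 with the sponge on its brightest probe.

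Of the 12 tested MAP3 kinase probes, 0 passed the test against the control in either comparison. Map3k3 (MEKK3), which acts on several branches including that of Mapk7, had a log2 signal of 9.46 and 9.62 in the control, 9.72 and 9.79 with miR-26a, and 9.19 and 9.35 with the sponge. The groups were ordered sponge, control and miR-26a without overlap. Its log2 change was 0.22 with miR-26a (adjusted p = 0.114, limma) and -0.27 with the sponge (adjusted p = 0.227, limma). Between miR-26a and the sponge the difference was 0.48 (SE 0.07, adjusted p = 0.0127, limma).

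Map3k5 (ASK1), a kinase activated by oxidative stress, gave different answers on its 2 tested probes. On the dimmer probe, whose mm9 span is longer than the probe itself, the log2 signal was 9.39 and 9.33 in the control, 9.02 and 9.06 with miR-26a, and 9.37 and 9.53 with the sponge. There the change was -0.32 with miR-26a (adjusted p = 0.0644, limma) and -0.41 against the sponge (SE 0.08, adjusted p = 0.0262, limma). The brighter Map3k5 probe gave -0.05 with miR-26a and 0.18 against the sponge, where the low group was the sponge. With the Map3k5 probes averaged the difference from the sponge was -0.12 (adjusted p = 0.322, limma). Map3k7 (TAK1), which relays cytokine receptor signals, had the largest change among the MAP3 kinases with miR-26a by brightest probe, 0.27 (SE 0.08, adjusted p = 0.092, limma). Its other probes gave 0.05 and 0.19. With the sponge the Map3k7 probes gave 0.16, -0.14 and 0.14 in the same order.

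None of the 7 tested MAP4 kinase probes passed the test. Map4k3 (GLK) had the largest change of the tier with miR-26a, 0.77 (SE 0.19, adjusted p = 0.0617, limma). Its log2 signal was 5.75 and 5.58 in the control, 6.87 and 5.99 with miR-26a, and 5.91 and 5.73 with the sponge, so miR-26a replicate 1 stood far above the other 5 arrays. Map4k1 (HPK1), a kinase of blood cells that acts in antigen receptor signalling, had 14.11 and 14.27 in the control, 13.79 and 13.80 with miR-26a, and 13.92 and 14.23 with the sponge. The miR-26a pair was the lowest, and the change of -0.39 missed the threshold as given above. Map4k5, the largest change of the tier with the sponge by a narrow margin, gave 0.16 there and -0.17 with miR-26a (adjusted p = 0.472 and 0.334, limma).

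**Figure D2:**
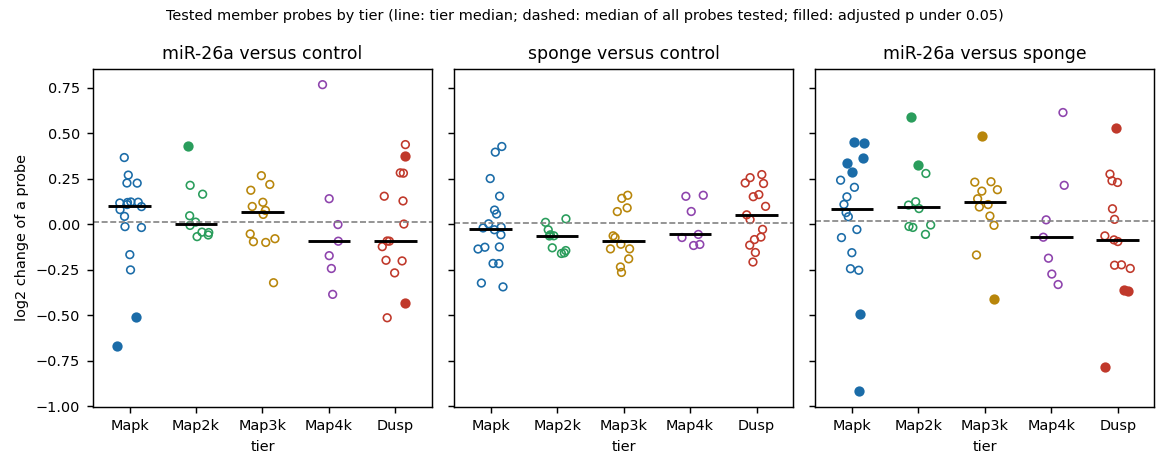
Each point is a tested probe, with its log2 change on the y axis and its tier on the x axis, in the 3 comparisons; black lines are tier medians and the dashed line is the median of all 20168 probes tested. The tier medians stay between -0.09 and 0.12, while single probes such as those of Mapk6 reach -0.92 against the sponge.

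As tiers, the medians lay close to those of all probes. With miR-26a the median log2 change was 0.10 for the 18 MAP kinase probes, 0.00 for the 10 MAP2 kinase probes, 0.06 for the 12 MAP3 kinase probes, -0.09 for the 7 MAP4 kinase probes and -0.09 for the 15 phosphatase probes. With the sponge the medians were -0.03, -0.06, -0.09, -0.06 and 0.05 in the same order. The phosphatases were the only tier of the 5 with a median above 0 for the sponge, and in the separate experiments it was -0.01 and 0.06. No test was made of a tier.

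The dual-specificity phosphatases fall into typical MAP kinase phosphatases, which dock to their MAP kinase, and smaller atypical members. Of the 10 typical members, Dusp1, Dusp2, Dusp6, Dusp7, Dusp10 and Dusp16 were tested, and with miR-26a 0 of their 7 probes passed, beside 5.14% of all probes lower and 4.5% higher. The median log2 change of these probes was -0.20 with miR-26a and 0.03 with the sponge. Of the 14 atypical members 6 were tested, and 1 of their 8 probes was lower and 1 higher with miR-26a, too few to set against those shares.

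Dusp6, a cytoplasmic phosphatase that acts on ERK kinases, had a log2 signal of 13.88 and 14.04 in the control, 13.59 and 13.80 with miR-26a, and 14.03 and 14.09 with the sponge. Both miR-26a arrays lay below the other 4. The Dusp6 change with miR-26a was -0.27 (SE 0.07, adjusted p = 0.0823, limma), and against the sponge it was -0.37 (SE 0.07, adjusted p = 0.029, limma). Dusp16, which acts on JNK and p38, had 6.95 and 6.62 in the control, 6.19 and 6.36 with miR-26a, and 7.07 and 7.05 with the sponge. Its groups did not overlap, and it gave the largest phosphatase change by brightest probe in all 3 comparisons. The Dusp16 change was -0.51 with miR-26a (SE 0.12, adjusted p = 0.0615, limma), 0.27 with the sponge (adjusted p = 0.354, limma) and -0.79 between miR-26a and the sponge (SE 0.12, adjusted p = 0.0159, limma). With normexp background correction the Dusp16 difference from the sponge was -0.45 (adjusted p = 0.0113, limma). In the main fit Dusp6 and Dusp16 thus passed the test against the sponge and not against the control. This contrast depends on the processing. Against the control, Dusp16 passed with scaling to the 75th percentile and Dusp6 with normexp background correction. Against the sponge, Dusp6 did not pass without the replicate block (adjusted p = 0.12, limma).

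Dusp2, a nuclear phosphatase induced in activated lymphocytes, had its highest values with miR-26a. On the arrays the Dusp2 log2 signal was 14.73 and 14.80 in the control, 14.97 and 15.13 with miR-26a, and 14.75 and 14.89 with the sponge. The change with miR-26a was 0.28 (SE 0.07, adjusted p = 0.0612, limma). Dusp1, an immediate early gene, gave -0.20 with miR-26a (adjusted p = 0.178, limma) and -0.12 with the sponge. Dusp10, which acts on JNK and p38, gave -0.20 and 0.03. For Dusp7 the brighter probe gave -0.09 with miR-26a (95% interval -0.28 to 0.09) and -0.03 with the sponge.

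Dusp5, a nuclear phosphatase specific for ERK, was above background on all 6 arrays but over the signal limit of 50 on only 2, so it was not tested. Its log2 signal was 5.95 and 5.10 in the control, 4.20 and 4.12 with miR-26a, and 6.24 and 5.35 with the sponge. The miR-26a arrays were the lowest pair, and the arrays over the limit were replicate 1 of the control and of the sponge. No test is given for Dusp5, since a lower limit would have admitted it through the groups in which it was high. Dusp4, another phosphatase of the ERK branch, was not above background on any array.

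Dusp9 was above background on both miR-26a arrays and on 0 of the other 4. Its log2 signal was 5.18 and 4.70 with miR-26a, against 3.05 and 2.86 in the control and 2.90 and 1.77 with the sponge, where it was not well above background. It was not tested. The ratio of the mean Dusp9 signal with miR-26a was 3.95 to the control and 6.08 to the sponge. These ratios divide by signals that were not well above background, so they are imprecise and are not lower bounds. In a fit with no filter the Dusp9 adjusted p was 0.253 against the control and 0.178 against the sponge (limma). Other untested members also differed in detection. Map3k8 was above background on 2 miR-26a arrays, 1 sponge array and 0 control arrays. Map3k12 was above background on 2 control arrays, 1 sponge array and 0 miR-26a arrays.

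The atypical phosphatase Dusp23 fell with miR-26a. The Dusp23 log2 signal was 9.63 and 9.59 in the control, 9.19 and 9.16 with miR-26a, and 9.49 and 9.59 with the sponge. Replicates differed by far less than the miR-26a pair differed from the rest. The Dusp23 change was -0.43 with miR-26a (SE 0.07, adjusted p = 0.0258, limma) and -0.07 with the sponge (95% interval -0.25 to 0.11). Dusp28 went the other way, with 9.80 and 9.77 in the control, 10.06 and 10.25 with miR-26a, and 9.55 and 9.70 with the sponge. The 3 groups did not overlap for Dusp28, while for Dusp23 the control and sponge arrays did. The Dusp28 change was 0.37 with miR-26a (SE 0.08, adjusted p = 0.0494, limma), just inside the threshold, -0.16 with the sponge (adjusted p = 0.404, limma) and 0.53 between them (adjusted p = 0.0152, limma).

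The probe of Dusp23 lies at chr1:174560901-174560960 on the minus strand and that of Dusp28 at chr1:94804718-94804777 on the plus strand of mm9. Shown are bases 26 to 55 of the Dusp23 probe, with the polyadenylation hexamer in capitals, and bases 1 to 30 of the Dusp28 probe.
Dusp23: attaagtgatcaAATAAAtaactctgggac
Dusp28: tcgtttcttaacctgtatcaacatcaacgc

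Dusp3, which acts on ERK and JNK, had 7.72 and 7.17 in the control, 8.02 and 7.73 with miR-26a, and 7.71 and 7.50 with the sponge. The control replicates differed by more than the groups, and the change within experiments was 0.44 with miR-26a (SE 0.10, adjusted p = 0.0544, limma). Dusp12 gave 0.28 on its dimmer probe (adjusted p = 0.0876, limma) and 0.13 on its brighter probe with miR-26a. With the sponge the same Dusp12 probes also rose, by 0.26 (adjusted p = 0.25, limma) and 0.22. Dusp11 gave 0.00 with miR-26a and 0.23 with the sponge. The 2 probes of Dusp22 gave -0.09 and 0.15 with miR-26a, and 0.15 and -0.08 with the sponge.

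**Figure D3:**
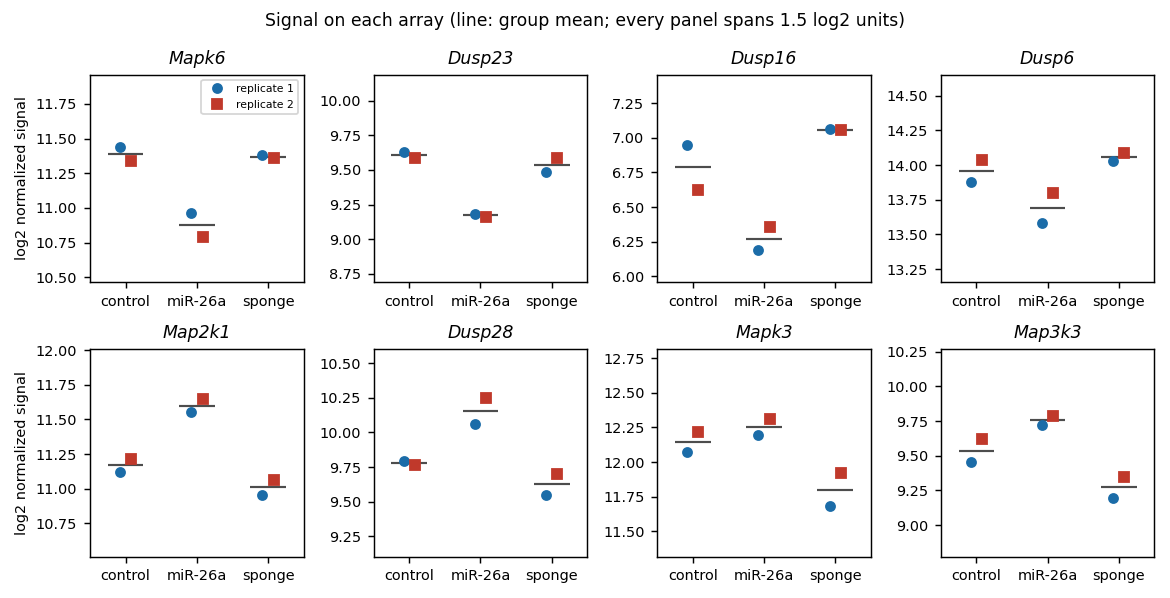
The log2 normalized signal of 8 genes is plotted for each of the 6 arrays, circles for replicate 1 and squares for replicate 2, with a line at the group mean. The miR-26a arrays are lowest for Mapk6, Dusp23, Dusp16 and Dusp6 and highest for Map2k1, Dusp28 and Map3k3, while for Mapk3 the sponge arrays are lowest and the miR-26a and control arrays overlap.

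The genes around the cascade were described through 4 lists. These lists were chosen with earlier results of these data known, so their shares and medians are descriptions, and no test was made of a list. The list of upstream genes, which holds Ras proteins, Raf kinases, adaptors and their regulators, had 33 tested probes for 22 of its 29 genes. With miR-26a 3 of them were lower and 1 higher, or 9.09% and 3.03% beside 5.14% and 4.5% of all probes tested, and the median log2 change was -0.05 beside 0.01. Gab1, an adaptor of cytokine and growth factor receptors, gave -0.93 (SE 0.07, adjusted p = 0.0047, limma). Gab1 had a log2 signal of 7.37 and 7.52 in the control, 6.47 and 6.56 with miR-26a, and 7.41 and 7.45 with the sponge. Rasgrp2, an exchange factor for Rap and Ras proteins, gave -0.35 on both of its probes (adjusted p = 0.0337 and 0.036, limma), and Rras, a Ras relative, gave 0.34 (adjusted p = 0.0471, limma). The other upstream genes did not pass.

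The list of downstream kinases and scaffolds had 25 tested probes, of which 2 were lower and 2 higher with miR-26a, or 8% each way beside the same 5.14% and 4.5% of all probes. The median log2 change was 0.06. Both lower probes were of Mknk2 (MNK2), a kinase that ERK and p38 activate and that phosphorylates the translation factor eIF4E. The brighter Mknk2 probe had 15.58 and 15.56 in the control, 14.97 and 14.71 with miR-26a, and 15.63 and 15.68 with the sponge. The change was -0.73 on this probe (SE 0.10, adjusted p = 0.0138, limma) and -0.89 on the dimmer Mknk2 probe (SE 0.08, adjusted p = 0.0066, limma). Higher were Mapkapk3, a p38 substrate kinase, by 0.66 (adjusted p = 0.0132, limma) and Rps6ka4 (MSK2), a nuclear kinase downstream of ERK and p38, by 0.51 (adjusted p = 0.0196, limma).

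Of the transcription factors that the cascade acts on or induces, 7 of 24 probes were lower and 1 higher with miR-26a, or 29.2% and 4.17% beside 5.14% and 4.5% of all probes tested, and the median log2 change was -0.26 beside 0.01. The lower probes belong to 6 of 15 tested genes. Etv5, an ETS factor, gave -0.64 (SE 0.07, adjusted p = 0.00863, limma). Etv5 had a log2 signal of 12.61 and 12.78 in the control, 11.97 and 12.13 with miR-26a, and 12.84 and 12.92 with the sponge. Atf3, a stress-induced factor, gave -0.85 (SE 0.12, adjusted p = 0.0173, limma) at a low log2 signal of 5.39 to 6.54 over the arrays, and Jun, a partner in AP-1, gave -0.54 (SE 0.10, adjusted p = 0.0306, limma). Nr4a1, an orphan nuclear receptor, was also lower (-0.44). Elk3, an ETS factor bound by MAP kinases, was lower on 2 of its 3 probes (-0.36 and -0.40), and Atf2 was lower on 1 of its 4 probes (-0.31). Srf, the serum response factor, was higher by 0.44 on 1 of 2 probes (adjusted p = 0.0475, limma), and Egr1, an immediate early gene, gave 0.01. With the sponge 0 of the 24 probes passed, and the median was -0.02.

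The list of related kinases and phosphatases had 18 tested probes, 3 lower and 1 higher with miR-26a, or 16.7% and 5.56% beside 5.14% and 4.5% of all probes. Styx, a catalytically dead relative of the dual-specificity phosphatases, gave -0.43 and -0.47 on its probes (adjusted p = 0.0413 and 0.0206, limma). The phosphatase Ssh2, which acts on cofilin, gave -0.34 (adjusted p = 0.0365, limma), and Mink1, a kinase related to the MAP4 kinases, gave 0.53 on 1 of its probes (adjusted p = 0.0155, limma). With the sponge 0 probes of any of the 4 lists passed. Against the sponge, miR-26a gave 7 lower and 2 higher of 33 upstream probes, or 21.2% and 6.06%. It gave 5 and 3 of 25 downstream probes (20% and 12%), 8 and 4 of 24 transcription factor probes (33.3% and 16.7%), and 4 and 3 of 18 related probes (22.2% and 16.7%). Of all probes tested, 8.49% were lower and 8.28% higher in that comparison.

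**Figure D4:**
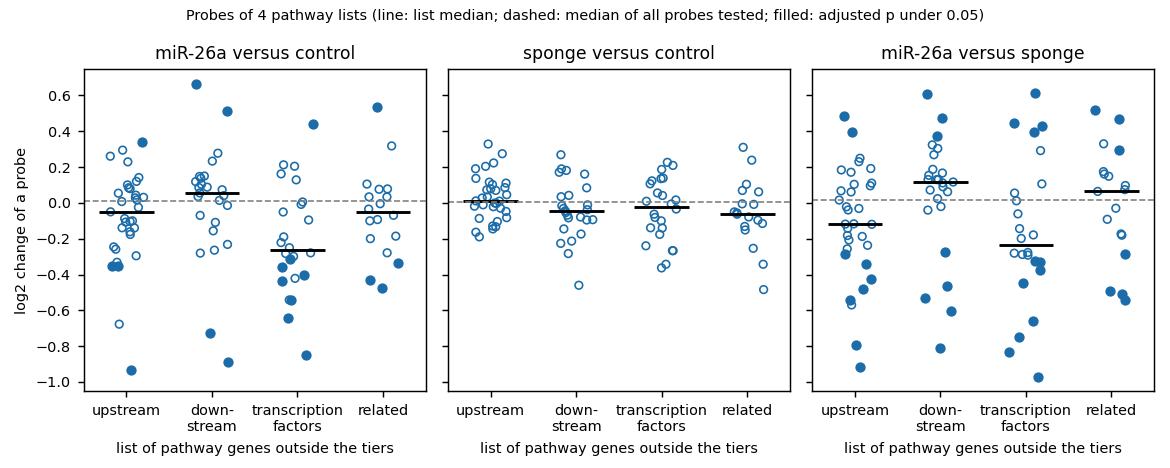
Each point is a tested probe of 1 of 4 lists of pathway genes (x axis), with its log2 change on the y axis, in the 3 comparisons; lines are list medians and the dashed line is the median of all probes tested. With miR-26a the transcription factor list has a median of -0.26 against the control and -0.24 against the sponge, and in the sponge panel no point is filled.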

How the data were processed

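The authors deposited for each of the 6 single-colour arrays the scanner output of Agilent Feature Extraction (version 10.7.1.1 per the labels), in which each spot has a fluorescence intensity as mean signal and as background-subtracted processed signal. They also deposited a table of quantile-normalized intensities on a linear scale, which was used as an alternative. Its columns share 1 median, 12.29, and its log2 values correlate with those of the matching scanner output at 0.999861 or more. The array design supplied the gene names and the mm9 coordinates, and overlapping transcripts of a gene cannot be separated by a probe.

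Here the processed signals of all spots were brought to a common distribution (quantile normalization) and to the log2 scale. The mean of a probe was taken over its spots without an outlier flag, or over all its spots where every spot was flagged. A probe was tested if 1 or more arrays had it well above background and 4 or more had it over 50. A single model of the 6 arrays with the replicate number as a block was fitted with limma 3.58.1 under R 4.3.3, because in the methods every experiment has its own control, and p-values were adjusted by Benjamini-Hochberg over the 20168 probes tested. The titles of the control samples quote other accessions, so their pairing rests on the methods alone. Deviations from the group means were correlated between same-numbered arrays, at 0.379, 0.588 and 0.454 across probes. With 2 arrays a group, precision is limited throughout.

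Members and lists were chosen with earlier results of these data known. Named by rule are the genes with a called probe and those with the largest change of a tier in a comparison. A set list of ERK, JNK, p38 and phosphatase genes was also part of the rule. Other members, among them Mapk7, Mapk11, Dusp9 and Dusp12, are given in addition and were not chosen by this rule. The brightest tested probe stands for a gene. The fit was tested on simulated data for miR-26a versus control with 20168 probes, of which 200 were changed: 100% of changes of 1 and 76% of changes of 0.5 on the log2 scale were recovered, and 18 of 194 calls were false. The lists of markers and pathway genes are described beside their results. RefSeq protein sequences were not used here. Single values of some genes are not reported here, although these genes are counted in the totals, medians and marker sums. Alternatives were no block, scaling to the 75th percentile, normexp with an offset of 50, the authors' values, 3 other filters, 4 arrays only, array weights, averaged probes and leaving out each array. Tables and plots were made with numpy 2.4.6, pandas 2.3.3 and matplotlib 3.10.9.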

Additional observations from a re-analysis of the deposited data

How the results depend on the processing

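For the sponge versus control, all alternatives run left the count of called member probes at 0. The 5 calls for miR-26a versus control became 0 without the replicate block and 0 with no filter, where 0 of 55681 probes passed, 8 with scaling to the 75th percentile, 9 with normexp and 11 with array weights. The 15 calls for miR-26a versus sponge became 4 without the block, 0 with no filter and 8 with the 4 arrays of these groups only. Leaving out 1 array gave 0 to 6 calls for miR-26a versus control (0 without control replicate 1 or 2, 3 without miR-26a replicate 2) and 0 to 11 for miR-26a versus sponge (0 without sponge replicate 1 or 2). A left-out array leaves its group with 1 array, assumed to vary like the others, and the other settings stayed within 1.5 times. No called change reversed its sign. The median log2 change of a tier moved by over 1 SD between experiments as follows. For the phosphatases with miR-26a it became -0.0603 with the 75th percentile, -0.0635 with normexp, 0.0381 with no filter and -0.054 with averaged probes, and with the sponge 0.1107 with the 75th percentile. For the MAP kinases with miR-26a it became 0.0236 with no filter, and for the MAP4 kinases with averaged probes -0.1688 with miR-26a and -0.0021 with the sponge. Leaving out 1 array gave, with miR-26a, 0.0511 to 0.1145 for the MAP kinases, -0.0114 to 0.0681 for the MAP2 kinases and -0.0978 to -0.021 for the phosphatases, and with the sponge -0.1008 to -0.0135 for the MAP kinases, -0.1334 to -0.046 for the MAP2 kinases and -0.0984 to -0.0029 for the MAP4 kinases. The cause of these shifts was not tested.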
